A study of Mus musculus with 32 samples.

Results

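The unperturbed change of the embryonic transcriptome between the early and the late 2-cell stage was described from 4 of the 32 libraries of the series, and from 4 of its 16 RNA-seq libraries. The members were chosen by stage and vehicle, namely the 2 early 2-cell libraries and the 2 late 2-cell libraries of DMSO-treated embryos in the experiment with A-485, an inhibitor of the acetyltransferases CBP and p300. No library that received A-485 or the deacetylase inhibitor TSA was used. The series asked how histone H3K27 acetylation is set up at fertilization and how it relates to genome activation. Embryos in all groups came from in vitro fertilization of wild-type B6D2F1/J eggs with B6D2F1/J sperm, from parents aged 6 to 8 weeks, and carried DMSO as vehicle only. In the A-485 experiment the vehicle was present from 4 to 20 hours post insemination. The late 2-cell controls of the TSA experiment, exposed to vehicle from 8 to 28 hours post insemination, and a pair of DMSO-treated zygote libraries served only for comparison. Each library was made from total RNA of pooled whole embryos with a stranded SMART-Seq kit, so a value is the share of a gene in the RNA of a pool, and fewer cells with a transcript cannot be told apart from less of it per cell. Whether the early and late libraries were prepared together is not given in the sources used here, so stage and library preparation cannot be told apart.

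A mouse egg is transcriptionally silent when it is fertilized, and its proteins are made from mRNA stored during oocyte growth. Transcription of the embryonic genome starts weakly in the late zygote and the early 2-cell embryo (minor zygotic genome activation, or minor ZGA) and rises broadly at the late 2-cell stage (major ZGA). Over the same period stored mRNAs are deadenylated and degraded, which is called maternal decay. Ribosomes, polymerases, proteasomes and metabolic enzymes are classes whose mRNAs are largely present in zygotes already and which the embryo also makes for itself. The *Zscan4* and *Usp17l* families and some homeobox genes are known for a short burst of transcription at the 2-cell stage.

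The 4 libraries held between 19215326 and 23067712 expected counts, estimated read numbers per gene in which reads shared by several genes are split between them. Levels are given as FPKM, fragments counted per length of the gene and per size of the library. Replicates correlated at 0.963 and 0.964 on the log2 scale, and each replicate pair differed by more than sampling noise (chi-square statistic over its degrees of freedom of at least 10.9). The 13 mitochondrially encoded mRNAs took between 2.27 and 2.49% of all counts in the 4 libraries. Markers of cells that a pool could carry over were summed by list. Of 15 cumulus cell markers, 9 were measured well enough to be tested. The summed level of all 15 was 3.45 and 4.72 FPKM at early against 8.96 and 13.0 FPKM at late 2-cell. The late sum rested mainly on *Amhr2*, the receptor for anti-Müllerian hormone, which read 0.33 and 0.23 FPKM at early and 6.95 and 10.7 FPKM at late 2-cell. The other 8 markers tested read at most 1.77 FPKM in any library. The 9 erythroid markers, 6 of them tested, summed to 3.84 to 5.17 FPKM at early and 3.78 to 4.86 FPKM at late 2-cell with none called. The 10 fibroblast markers, 6 of them tested, summed to 2.44 to 2.55 and 2.27 to 2.44 FPKM, with 1 called. The 13 sperm markers, 5 of them tested, summed to 129 FPKM in both early libraries and to 78.6 and 66.2 FPKM in the late libraries, with 1 called. Most of that sum was *Odf2*, also a centrosome gene, at 122 and 119 FPKM at early and 73.1 and 62.9 FPKM at late 2-cell, and the protamine gene *Prm2* read 5.59 and 6.52 FPKM and then 2.37 and 0.99 FPKM. Their part in the changes below was not tested.

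More genes rose than fell. Of 20326 genes tested, 3238 were higher at late 2-cell (15.9%) and 1813 were lower (8.92%). A gene was called when edgeR's quasi-likelihood test gave a Benjamini-Hochberg adjusted p below 0.05, the change was at least 2-fold and its mean level reached 1 FPKM in either group. Among the 13727 genes that reached that level the median log2 fold change was 0.03, near to no change. Both late libraries lay above both early libraries for 3197 of the genes called higher, and below them for 1776 of the genes called lower. The call itself makes such separation likely, so these counts are not separate support for it. The rises were also the larger changes, with a median log2 fold change of 2.07 (quartiles 1.51 and 2.73), against -1.55 (quartiles -2.05 and -1.24) for the falls. At least 8-fold changes numbered 605 upward and 128 downward, and at least 16-fold changes 190 and 52.

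The genes that rose took 6.13 and 5.74% of all counts in the early libraries and 21.5 and 21.8% in the late libraries. The genes that fell went the other way, from 17.0 and 17.6% to 5.81 and 5.86%. Most called genes changed level rather than appearing or vanishing, since 78.6% of the genes that rose and 79.5% of those that fell had at least 1 FPKM in both groups. Every count was 0 in both early libraries for 37 of the genes that rose, and in both late libraries for 23 of those that fell. Protein-coding genes, 15402 of those tested, were higher in 18.7% and lower in 9.83% of cases. Of the 11371 that reached 1 FPKM in either group, 2886 were higher and 1514 lower. Long intergenic non-coding RNAs leaned the other way, with 5.92% of 1082 higher and 10.5% lower, as did 227 unprocessed pseudogenes, with 10.6% higher and 15.4% lower.

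**Figure D1:**
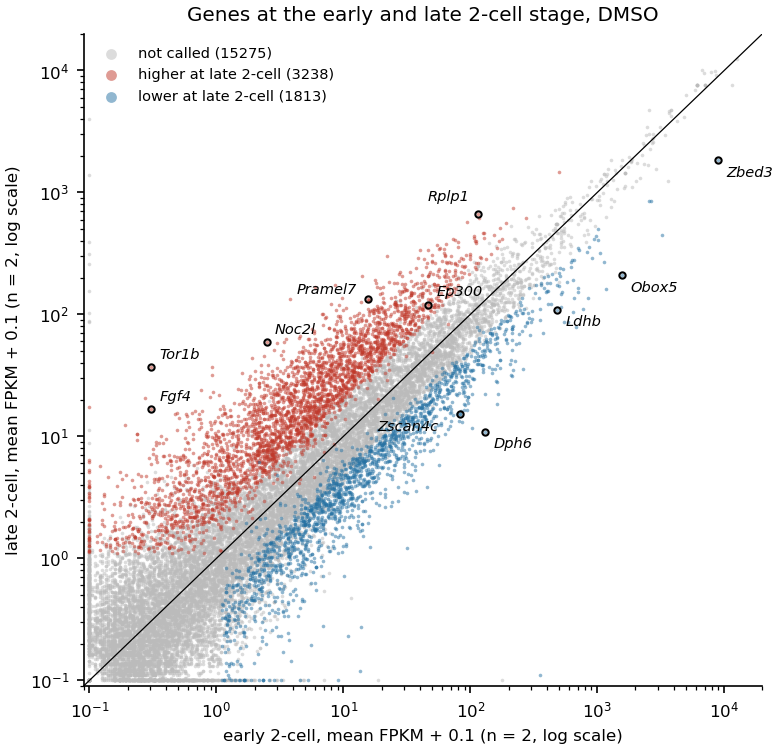
Mean FPKM of each tested gene in the 2 early (x axis) and the 2 late (y axis) 2-cell DMSO libraries, both on a log scale with 0.1 added so that zeros show, with the 3238 genes called higher, the 1813 called lower and the genes not called in separate colours. *Tor1b* and *Fgf4* lie far above the diagonal near the left end of the x axis, while *Zbed3* and *Obox5* lie below it among the most abundant mRNAs.

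The largest rise among abundant protein-coding genes was that of *Tor1b*, a torsin ATPase of the endoplasmic reticulum and nuclear envelope, at 0.09 and 0.32 FPKM in the early 2-cell libraries and 33.97 and 39.8 FPKM in the late 2-cell libraries. The 2 groups were far apart, with a log2 fold change of 7.79 ± 0.29 (± SE of the fit, n = 2 libraries a group, as for every value below) and an adjusted p of 1.54e-08. *Pheta1*, an adaptor of endosomal trafficking, behaved alike, at 0.17 and 0.18 FPKM at early 2-cell and 17.6 and 23.6 FPKM at late 2-cell (log2 fold change 7.18 ± 0.31). *Fgf4*, the growth factor that inner cell mass cells later use to signal to their neighbours, read 0.33 and 0.08 FPKM at early 2-cell and 18.4 and 14.9 FPKM at late 2-cell, a change of 5.56 ± 0.48 with an adjusted p of 2.29e-06. It was close to silent in zygotes too, at 0.02 and 0 FPKM. *Exosc6*, a subunit of the RNA exosome, was at 0 in 1 early library and at 0.74 FPKM in the other, and reached 16.2 and 14.04 FPKM. *Mmp19*, a matrix metalloproteinase, went from 0.41 and 0.36 to 15.2 and 15.9 FPKM. The other genes among the 12 largest rises were *Tmem191c*, *Platr17*, *Rpl10l*, *Cpne1*, *Kcnk6*, *Gtpbp3* and *Gpn3*, with log2 fold changes between 5.01 and 7.13. *Gtpbp3* acts in the modification of mitochondrial tRNA and stood at 0.72 and 0.91 FPKM at early 2-cell and 36.7 and 37.01 FPKM at late 2-cell.

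The most abundant genes that rose were of another kind. *Rplp1*, a protein of the ribosomal stalk, was already at 120.48 and 108 FPKM at early 2-cell and reached 712 and 622 FPKM, a log2 fold change of 2.52 ± 0.14 (adjusted p = 1.16e-07). *Set*, a histone chaperone and phosphatase inhibitor, rose from 132 and 100.15 to 627 and 602 FPKM. *Calm2*, a calmodulin gene, rose less, from 297 and 253 to 672 and 574 FPKM (log2 fold change 1.22 ± 0.13). The remaining pair of the 5 most abundant were the small nucleolar RNA genes *Snora64* and *Gm22806*, whose calls were lost when single libraries were left out.

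**Figure D2:**
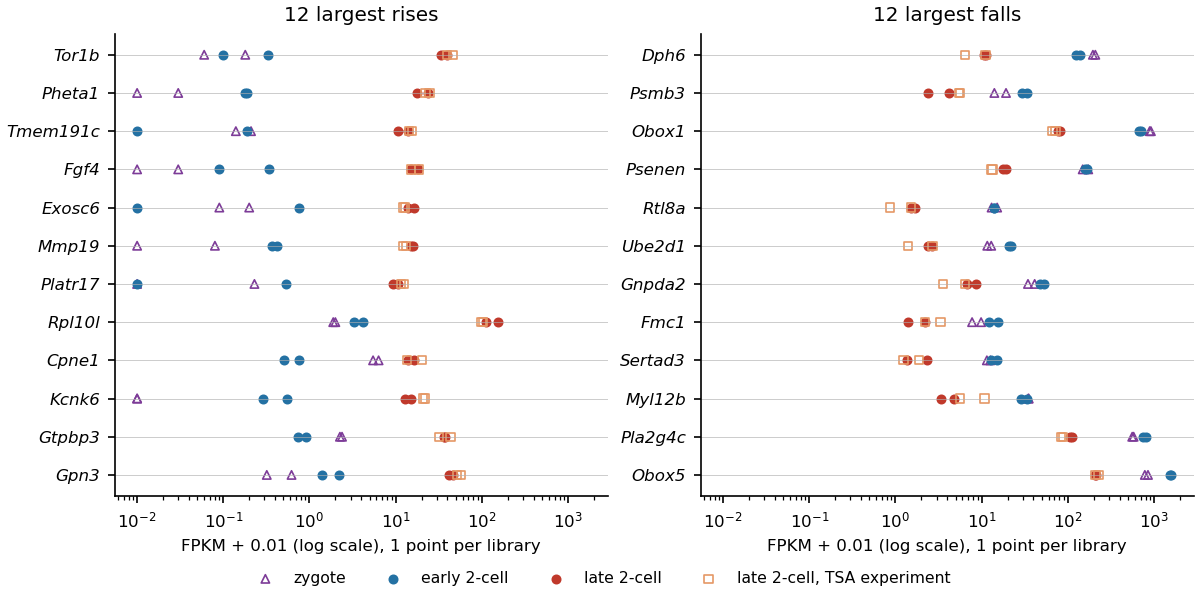
FPKM plus 0.01 in each DMSO library (x axis, log scale) of the 3 stages and of the late 2-cell controls from the TSA experiment, for the 12 genes with the largest rises (left) and the 12 with the largest falls (right), 1 point per library and no error bars. The 2 early and the 2 late points of each gene lie apart, as the rule that chose the genes required. The late controls of the TSA experiment lie by the late points, and the zygote points of the genes that fell lie nearer to the early than to the late points.

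Among the falls the most abundant mRNAs of the early embryo stood out. *Zbed3*, whose product belongs to the subcortical maternal complex of the egg, read 8854 and 9134 FPKM in the early 2-cell libraries and 1781 and 1889.83 FPKM in the late 2-cell libraries, a log2 fold change of -2.30 ± 0.06 (adjusted p = 5.90e-09). *E330034G19Rik* went from 3299 and 3216 to 429 and 461 FPKM. *Btg4*, the adaptor that brings the CCR4-NOT deadenylase to maternal mRNA, fell from 2572 and 2526 to 906 and 805 FPKM (log2 fold change -1.58 ± 0.09). Its late level was still among the highest of the genes that fell.

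The largest falls were led by *Dph6*, an enzyme of diphthamide synthesis, at 124 and 138 FPKM at early 2-cell and 10.6 and 11.2 FPKM at late 2-cell (log2 fold change -3.45 ± 0.19, adjusted p = 1.05e-07). *Psmb3*, a subunit of the proteasome core, was at 29.8 and 33.9 FPKM at early 2-cell and 4.22 and 2.39 FPKM at late 2-cell. *Obox1*, an oocyte-specific homeobox gene, went from 666 and 704 to 81.1 and 76.5 FPKM, and *Obox5*, of the same family, from 1595 and 1535 to 207 and 210.36 FPKM with a change of -2.91 ± 0.09. *Psenen*, a subunit of the γ-secretase, read 168 and 158 FPKM at early 2-cell and 19.2 and 17.8 FPKM at late 2-cell. *Pla2g4c*, a phospholipase, fell from 745 and 807 to 108 and 112 FPKM. The other genes of this set were *Rtl8a*, *Ube2d1*, *Gnpda2*, *Fmc1*, *Sertad3* and *Myl12b*, with log2 fold changes between -3.12 and -2.96. None of the 12 largest falls ended at 0, and their late levels were between 1.61 and 209 FPKM as group means.

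Genes of the ribosome rose almost as a block. Of 83 ribosomal protein genes, 73 were called higher and none lower, with a median log2 fold change of 1.94, against -0.02 over all genes tested. Their median level went from 27.9 FPKM at early to 110 FPKM at late 2-cell, and together they took 0.180 and 0.171% of counts in the early and 0.557 and 0.587% in the late libraries. The fitted change was above 0 for 81 of the 83. *Rpl41*, which encodes a tiny protein of the large subunit, rose from 105 and 83.8 to 504 and 645 FPKM. *Rps15a* did not pass the test, at 379.52 and 399.96 FPKM at early 2-cell and 479.81 and 396 FPKM at late 2-cell (log2 fold change -0.05 ± 0.14, adjusted p = 0.818). *Rps27l*, the variant copy of *Rps27*, read 158 and 145 FPKM at early 2-cell and 101 and 113 FPKM at late 2-cell and did not reach the fold required, while *Rps27* itself rose from 22.3 and 5.25 to 108 and 145 FPKM. The early libraries of *Rps27* differed from each other by more than those of most members. The largest changes of the list were those of copies known from testis and muscle. *Rpl10l*, a retrogene copy of the X-linked *Rpl10*, rose from 3.26 and 4.19 to 156 and 113 FPKM (5.17 ± 0.23), when *Rpl10* itself went from 68.2 and 59.9 to 119 and 157 FPKM. *Rpl3l* remained low at 4.06 and 2.29 FPKM after 0.06 and 0 FPKM. The members of this long list other than *Rpl10l*, *Rpl3l* and *Rps27* were named after their values had been seen.

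Ribosome biogenesis, the nucleolar work of transcribing, cutting and folding ribosomal RNA, showed the highest median of all lists, 2.22 over 97 genes with 84 called higher and 1 lower. The median level was 9.16 FPKM at early and 38.0 FPKM at late 2-cell. *Noc2l*, which acts in the export of large subunit precursors, read 2.29 and 2.49 FPKM in the early 2-cell libraries and 52.6 and 66.1 FPKM in the late 2-cell libraries (log2 fold change 4.89 ± 0.19, adjusted p = 2.10e-08). *Bop1*, of the complex that processes large subunit RNA, went from 1.01 and 0.68 to 22.98 and 23.1 FPKM. *Nob1*, the endonuclease that makes the final cut in small subunit RNA, went from 0.98 and 2.02 to 34.7 and 30.6 FPKM. In each of these 3 genes both late libraries lay more than 10-fold above both early libraries. The exception was *Riok1*, a kinase of late small subunit maturation, which fell from 189.57 and 241 to 80.5 and 80.5 FPKM. Nucleophosmin (*Npm1*), an abundant member, was not called, at 501 and 483 FPKM at early 2-cell and 495 and 434 FPKM at late 2-cell (-0.08 ± 0.10, adjusted p = 0.56), and nucleolin (*Ncl*) lay just under the fold required, at 119.98 and 122 FPKM at early 2-cell and 240.03 and 224 FPKM at late 2-cell. *Npm1* and *Ncl* were chosen after their values had been seen.

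A short word stood in part of the promoters of these genes. The letters CCGGAAG, the core that ETS-family factors recognise, occurred on either strand in the window from 250 bases before to 50 bases after the start of 45.4% of the 97 ribosome biogenesis genes and of 26.5% of the 83 ribosomal protein genes, against 10.8% of 21884 windows of all protein-coding genes. Over the expressed protein-coding genes the share was 22.4% of those that rose, 12.8% of those that fell and 15.7% of those not called. The stretches below are the 120 bases before the start site in RefSeq, on the build GRCm38.p6, for the largest rises of either list that hold the word there. Capitals mark CCGGAAG or, where it lies on the other strand, CTTCCGG. *Ddx54* (chr5:120613010-120613129, plus strand), *Pwp2* (chr10:78185150-78185269, minus strand) and *Dhx37* (chr5:125434049-125434168, minus strand) encode ribosome biogenesis factors, and *Rpl19* (chr11:98026590-98026709, plus strand) and *Rpl38* (chr11:114668460-114668579, plus strand) encode large subunit proteins.
Ddx54: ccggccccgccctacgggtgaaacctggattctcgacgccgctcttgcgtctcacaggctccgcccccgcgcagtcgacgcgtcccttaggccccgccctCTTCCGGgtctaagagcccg
Pwp2: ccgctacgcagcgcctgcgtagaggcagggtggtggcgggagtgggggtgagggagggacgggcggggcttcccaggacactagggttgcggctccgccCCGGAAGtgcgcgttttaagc
Dhx37: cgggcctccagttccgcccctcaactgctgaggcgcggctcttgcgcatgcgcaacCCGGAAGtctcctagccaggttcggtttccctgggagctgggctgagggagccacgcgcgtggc
Rpl19: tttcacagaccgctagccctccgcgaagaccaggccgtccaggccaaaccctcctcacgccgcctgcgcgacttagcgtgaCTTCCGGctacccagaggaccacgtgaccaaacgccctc
Rpl38: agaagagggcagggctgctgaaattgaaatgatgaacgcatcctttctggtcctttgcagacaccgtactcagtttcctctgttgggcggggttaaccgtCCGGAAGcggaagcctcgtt
The word began between 20 and 64 bases before the start in these 5 stretches. *Ddx54*, an RNA helicase, rose from 4.74 and 4.00 to 45.5 and 53.5 FPKM, *Pwp2* from 1.14 and 1.32 to 12.4 and 13.7 FPKM and *Dhx37* from 2.63 and 1.12 to 12.5 and 20.6 FPKM. *Rpl19* rose from 16.9 and 23.8 to 145 and 187 FPKM and *Rpl38* from 10.2 and 12.5 to 93.3 and 79.8 FPKM. The groups did not overlap for any of the 5, which were picked for the size of their rise. A match of letters describes the window and was not tested as a binding site.

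Each list for making and reading RNA held more members that rose than members that fell. Among 32 RNA polymerase subunits 22 were higher and 1 was lower, with a median log2 fold change of 1.73. *Polr1e*, of the polymerase that makes ribosomal RNA, rose from 4.51 and 2.3 to 68.2 and 58.1 FPKM (4.02 ± 0.21), and *Polr3e*, of the polymerase that makes tRNA, from 1.46 and 0.46 to 15.1 and 17.97 FPKM. *Polr2b*, the second largest subunit of RNA polymerase II, rose from 21.8 and 17.1 to 53.1 and 58.2 FPKM. The largest subunit, *Polr2a*, read 24.97 and 25.4 FPKM at early 2-cell and 37.5 and 33.6 FPKM at late 2-cell, and its change of 0.82 ± 0.12 passed the test (adjusted p = 1.24e-04) but not the fold. The exception was *Polr2g*, which fell from 34.9 and 22.4 to 12.5 and 17.4 FPKM. Of 59 translation factors 29 were higher and 3 lower (median 0.83). *Eif3c*, of the scaffold that loads mRNA on the small subunit, was the largest rise, at 21.4 and 14.1 FPKM at early 2-cell and 214 and 172 FPKM at late 2-cell. The falls held *Eif4e1b*, an oocyte form of the cap-binding protein, from 597 and 556 to 180.23 and 189.85 FPKM, and *Eif1b*, from 58.1 and 72.4 to 21.9 and 18.9 FPKM. Of 66 spliceosome genes 29 were higher and 6 lower (median 0.86; 3 lower against the late controls of the TSA experiment), with *Snrnp35*, of the minor spliceosome, from 5.26 and 3.95 to 50.9 and 47.4 FPKM. *Snrpb2* fell from 80.6 and 84.7 to 14.6 and 15.7 FPKM.

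Nuclear transport and protein handling held changes in both directions. Of 57 nuclear pore and transport genes 21 rose and 4 fell, with a median of 0.34, or 0.62 without the first early library. *Tnpo3*, an importin for splicing factors, rose from 8.39 and 6.08 to 87.7 and 101 FPKM, while *Kpna7*, the importin of oocytes, fell from 47.04 and 49.96 to 7.64 and 11.5 FPKM. Of 37 chaperones 12 rose and 3 fell (median 0.65). Among them were 6 subunits of the cytosolic chaperonin, such as *Tcp1*, from 36.1 and 41.4 to 176 and 154 FPKM. The 3 that fell were the prefoldins *Pfdn4* and *Pfdn1* and the mitochondrial *Hspe1*, and another prefoldin, *Pfdn6*, rose from 5.47 and 2.7 to 35.4 and 38.7 FPKM. Of 40 proteasome subunits 18 were higher and 6 lower (median 0.92), so subunits of 1 complex went in opposite directions. The catalytic *Psmb5* rose from 0.11 and 1.6 to 10.4 and 15.1 FPKM and *Psma3* from 9.01 and 8.62 to 74.7 and 72.04 FPKM (3.08 ± 0.20). *Psmb3* and *Psmb6* fell, the latter from 50.1 and 56.9 to 13.5 and 23.4 FPKM, and *Psma7* fell from 21.1 and 22.1 to 5.69 and 8.54 FPKM.

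**Figure D3:**
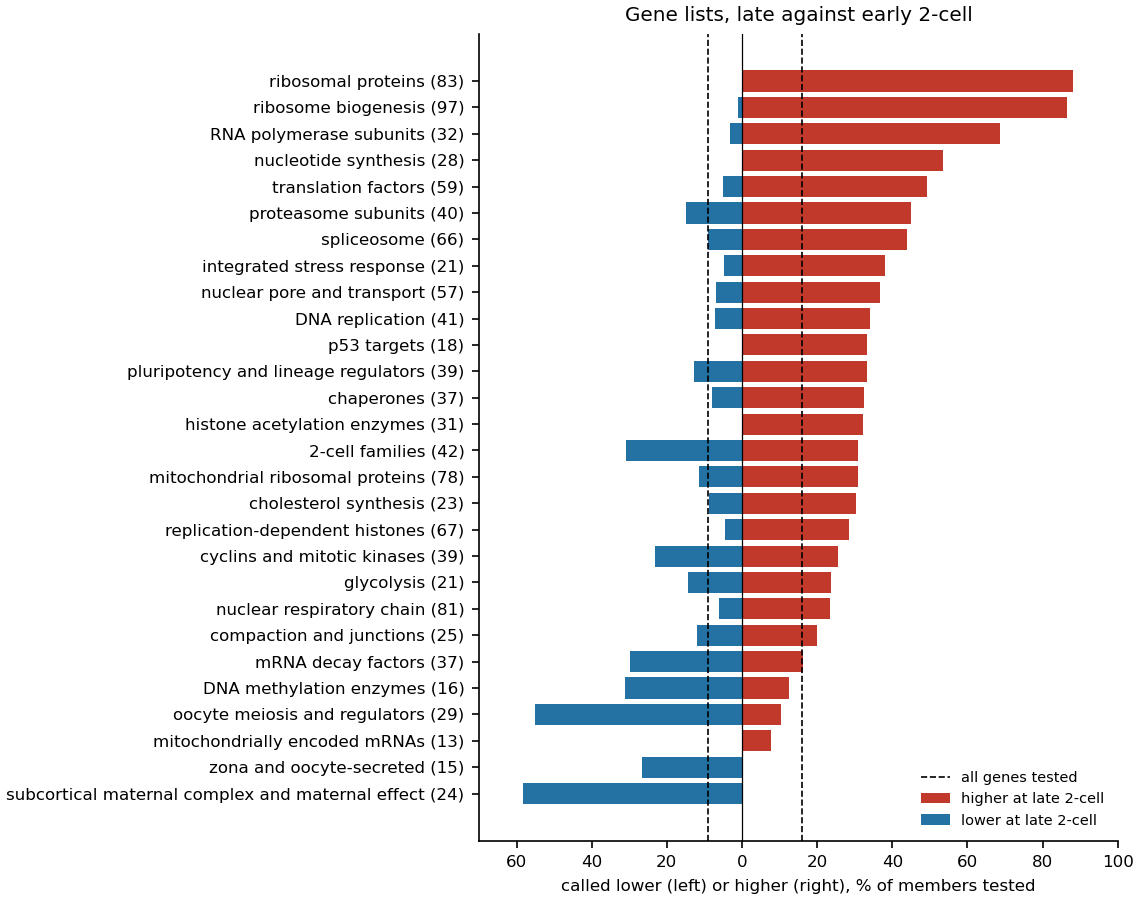
For each gene list (y axis) the percent of its tested members called higher (bars to the right) and called lower (bars to the left) at late 2-cell, with the shares over all tested genes, 15.9 and 8.92%, drawn as lines. Most list members are expressed protein-coding genes, of which 2886 of 11371 were higher and 1514 lower. Both of those shares lie above the lines and are not drawn. Ribosomal proteins and ribosome biogenesis extend furthest to the right, and the subcortical maternal and oocyte lists furthest to the left.

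Mitochondrial genes were a mixed group. Of the 13 mRNAs encoded in the mitochondrial genome 1 was called, with a median log2 fold change of -0.08. That gene was *mt-Co2*, whose reads are shared with other loci and which is uncertain. Of 81 nuclear genes of the respiratory chain 19 were higher and 5 lower (median 0.24), and of 78 mitochondrial ribosomal proteins 24 were higher and 9 lower (median 0.39). Against the late controls of the TSA experiment the medians of these 3 lists were higher, at 0.24, 0.87 and 0.69, and 31 genes of the respiratory chain were called higher. With the replicate block the median of the respiratory chain was 0.14. *Uqcrfs1*, the iron-sulfur subunit of complex III, rose from 2.31 and 2.07 to 14.6 and 18.9 FPKM and *Cyc1*, of the same complex, from 1.17 and 0.48 to 5.37 and 11.6 FPKM. *Ndufa10*, of complex I, fell from 13.4 and 14.8 to 2.91 and 4.8 FPKM. *Mrps34* and *Mrps28* rose with log2 fold changes of 5.10 ± 0.99 and 3.54 ± 0.69, and *Mrpl3* fell, with a log2 fold change of -1.92 ± 0.19.

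The share of metabolic genes called higher was 53.6% for nucleotide synthesis, 30.4% for cholesterol synthesis and 23.8% for glycolysis. The last 2 shares lie near that of expressed protein-coding genes, 2886 of 11371. Of 28 genes of nucleotide synthesis 15 rose and none was called lower by edgeR (median 1.65), with 20 fitted changes above 0. Against the late controls of the TSA experiment 2 were lower. *Adsl*, which acts at a pair of steps in purine synthesis, read 3.67 and 2.86 FPKM in the early 2-cell libraries and 53.9 and 46.8 FPKM in the late 2-cell libraries (3.98 ± 0.19, adjusted p = 4.37e-08). *Cad*, which carries the opening steps of pyrimidine synthesis, rose from 1.9 and 2.36 to 19.1 and 16.2 FPKM. The inosine monophosphate dehydrogenases *Impdh1* and *Impdh2*, which commit purines to guanine nucleotides, rose from 3.49 and 4.97 to 36.5 and 39.5 FPKM and from 23.7 and 23.9 to 101 and 99.5 FPKM. *Prps1*, which makes the activated ribose, rose from 38.6 and 34.7 to 169.86 and 184 FPKM. The ribonucleotide reductase subunit *Rrm2* was not called, at 38.3 and 31.9 FPKM at early 2-cell and 30.6 and 44.1 FPKM at late 2-cell. Of 23 genes of cholesterol synthesis 7 rose and 2 fell, with a median of 0.63, or 0.33 without the first early library, and 4 fell against the late controls of the TSA experiment. Examples were *Mvk*, mevalonate kinase, up from 1.89 and 0.88 to 12.5 and 13.8 FPKM and *Nsdhl*, a later enzyme, from 9.72 and 8.23 down to 0.97 and 1.06 FPKM.

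Of 21 glycolysis genes 5 rose and 3 fell. The median of 0.10 rested on single libraries, since it was 0.02 without the first early, 0.34 without the second early, 0.03 without the first late and 0.24 without the second late library. *Ldhb*, the lactate dehydrogenase subunit abundant in oocytes, fell from 524 and 440.41 to 106 and 113 FPKM (-2.14 ± 0.12, adjusted p = 1.08e-07). *Pgam1*, phosphoglycerate mutase, rose from 6.46 and 8.98 to 32.3 and 33.3 FPKM and *Pkm*, pyruvate kinase, from 40.6 and 37.1 to 74.2 and 83.95 FPKM. The glucose transporters parted, with *Slc2a1* from 8.17 and 9.91 to 3.23 and 4.34 FPKM and *Slc2a3* from 2.06 and 2.31 to 5.01 and 4.2 FPKM. The third of the falls, *Tpi1*, was lost when the other late 2-cell controls were used.

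Genes of the cell cycle moved in both directions within families. Of 41 DNA replication genes 14 rose and 3 fell (median 0.62). *Mcm3*, of the replicative helicase, rose from 8.06 and 8.04 to 45.4 and 42.9 FPKM and *Pole*, a replicative polymerase, from 1.26 and 1.45 to 6.99 and 7.99 FPKM. *Gins3* rose from 1.36 and 1.28 to 12.5 and 11.97 FPKM. The single-strand binding complex split, in that *Rpa3* fell from 69.3 and 72.3 to 9.06 and 17.7 FPKM and *Rpa1* from 18.3 and 24.2 to 5.19 and 8.41 FPKM while *Rpa2* rose from 8.88 and 8.35 to 30.7 and 37.9 FPKM. Of 67 replication-dependent histone genes 19 rose and 3 fell, and 10 of them shared reads with other copies to a degree that leaves their counts uncertain. Their median was 0.52, or 0.23 without the second late library, and between 1 and 6 fell when single libraries were left out, 6 of them without the second late library and 1 without any other.

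Of 39 cyclins and mitotic kinases 10 rose and 9 fell, and the median of 0.07 changed with the late libraries, to -0.04 without the first and 0.27 without the second. *Ccne1*, the cyclin of entry into S phase, rose from 65.9 and 61.1 to 315 and 294 FPKM (2.37 ± 0.11, adjusted p = 4.37e-08). *Cdk1*, the mitotic kinase, rose from 55.8 and 55.2 to 231 and 226 FPKM and *Cdc20*, an activator of the anaphase-promoting complex, from 12.5 and 8.79 to 58.6 and 71.9 FPKM. *Aurkb*, a somatic Aurora kinase, rose from 3.44 and 1.72 to 13.1 and 16.3 FPKM, whereas *Aurkc*, its relative in germ cells, fell from 45.7 and 35.2 to 12.01 and 18.98 FPKM. Likewise *Cdc25c* rose from 13.8 and 9.3 to 47.5 and 55.1 FPKM, and *Cdc25b*, which drives meiotic resumption in oocytes, fell from 19.7 and 21.7 to 5.82 and 8.01 FPKM. *Ccnb2* fell from 40.2 and 38.3 to 9.32 and 9.38 FPKM and the spindle checkpoint kinase *Ttk* from 76.7 and 99.3 to 23.6 and 21.4 FPKM. *Wee2*, an oocyte kinase that restrains *Cdk1*, fell from 366 and 355 to 173 and 191 FPKM, close to the fold required.

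The 2-cell families parted into 13 members that rose and 13 that fell among 42 (median -0.29). Against the late controls of the TSA experiment the split was less even, with 11 higher, 18 lower and a median of -0.56. *Zscan4c*, a zinc-finger gene linked to telomere maintenance and a reporter of the 2-cell state, read 82.8 and 83.7 FPKM in the early 2-cell libraries and 15.04 and 15.2 FPKM in the late 2-cell libraries (-2.47 ± 0.13, adjusted p = 7.05e-08). *Zscan4f*, the most abundant copy, fell from 231 and 196 to 59.3 and 64.99 FPKM and *Zscan4d* from 76.1 and 63.7 to 15.5 and 17.8 FPKM. All 3 were still well above their zygote levels of at most 1.75 FPKM. *Usp17la*, of a deubiquitinase family, fell from 27.6 and 32.2 to 5.02 and 6.56 FPKM and *Zfp352* from 122 and 112 to 60.1 and 59.99 FPKM. The homeobox gene *Duxf3*, whose product switches on many of these families, was low in both groups, at 5.16 and 4.92 FPKM at early 2-cell and 3.22 and 4.29 FPKM at late 2-cell, and did not pass the test (-0.33 ± 0.32, adjusted p = 0.46).

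Within the *Obox* family *Obox1*, *Obox5*, *Obox7* and *Obox2* fell, and all 4 were abundant in zygotes, where *Obox2* read 506 and 557 FPKM and *Obox7* 104 and 107 FPKM. *Obox8* rose from 6.23 and 7.37 to 66.6 and 95.7 FPKM (3.56 ± 0.21), *Obox6* from 25.5 and 21.2 to 109 and 124 FPKM and *Obox3* from 58.5 and 47.4 to 133 and 110.07 FPKM. These 3 read at most 1.63 FPKM in zygotes. All 6 *Pramel* genes of the list rose, namely *Pramel7*, a factor of ground-state pluripotency, from 13.7 and 17.2 to 122 and 148 FPKM (3.04 ± 0.15), and *Pramel1*, *Pramel3*, *Pramel4*, *Pramel5* and *Pramel6* with log2 fold changes between 1.51 and 2.33. *Pramef17* rose too, from 0.94 and 1.06 to 8.62 and 12.2 FPKM, while *Pramef20* fell from 5.64 and 7.47 to 1.02 and 2.61 FPKM. *Tdpoz2*, *Tdpoz4* and the nuclear body protein gene *Sp110* rose by less, with log2 fold changes between 1.07 and 1.14. Reads of these near-identical copies are split by estimation, and among the members called the resulting uncertainty was below 0.1 of the count.

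The promoters of the families were searched for the same word and for that of the TATA box. None of 41 windows held CCGGAAG, while TATAAA, the TATA box, lay in 10 of them (24.4%). It lay in 7.80% of the expressed protein-coding genes that rose, 9.51% of those that fell and 12.7% of all 21884 windows. The stretches below show the 120 bases before the RefSeq start of the 2 members with the largest falls that hold the word there, *Zscan4c* (chr7:11005625-11005744, plus strand) and *Zscan4d* (chr7:11166149-11166268, minus strand), on GRCm38.p6 with TATAAA in capitals.
Zscan4c: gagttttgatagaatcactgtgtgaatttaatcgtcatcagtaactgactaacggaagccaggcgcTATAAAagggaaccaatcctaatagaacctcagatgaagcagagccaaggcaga
Zscan4d: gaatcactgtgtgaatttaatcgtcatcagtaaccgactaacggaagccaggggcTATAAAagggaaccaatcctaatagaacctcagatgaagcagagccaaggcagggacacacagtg
The word began 54 bases before the annotated start in *Zscan4c* and 65 bases before it in *Zscan4d*, and the bases around it were alike in both. No member that rose held TATAAA in that stretch of its RefSeq entry. Near-identical copies were counted as separate windows. The matches of letters were not tested as TATA boxes, nor was a link to the falls.

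**Figure D4:**
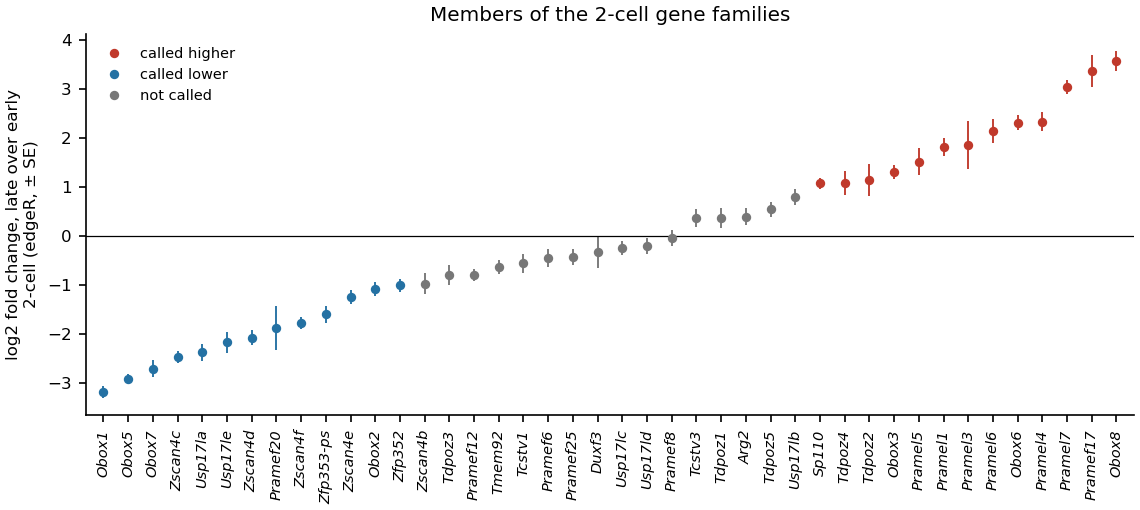
Log2 fold change of late over early 2-cell from edgeR (y axis) with its SE as error bar, 1 point for each of the 42 tested members of the 2-cell families (x axis, in order of the change), coloured by call. The members spread to both sides of 0, from *Obox1* at the left end to *Obox8* at the right end, with 13 called higher and 13 called lower against 11 and 18 with the late controls of the TSA experiment, which are not drawn.

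Genes that the study listed as activated in the minor wave were followed through the same step. The study defined these lists by comparing embryos treated with the compound DRB with DMSO-treated controls of the same stage. No DRB library is among the 32 of the series. Whether the controls were libraries used here is not given in the sources used here, so the early levels may not be independent evidence. Of 558 genes of the early 2-cell list 200 went on to rise, 88 fell and the median log2 fold change was 0.49. Their median level was 0.38 FPKM in zygotes, 14.3 FPKM at early and 22.6 FPKM at late 2-cell. *Selenos*, a selenoprotein of the endoplasmic reticulum, rose further from 8.99 and 7.94 to 202 and 145 FPKM (4.28 ± 0.20), and *Btbd18* from 17.8 and 9.87 to 194 and 219.99 FPKM. *Gm3442* fell from 3.71 and 3.8 FPKM to 0.09 and 0 FPKM. Of 29 tested genes of the study's zygote list 4 rose and 10 fell (median -0.73). They held *Tle3*, a co-repressor, up from 3.51 and 6.07 to 25.5 and 41.2 FPKM, and the pseudogene *Obox4-ps28*, down from 36.3 and 36.99 to 3.1 and 7.33 FPKM.

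Regulators of later lineages were a mixed group. Of 39 pluripotency and lineage genes 13 rose and 5 fell (median -0.03), and 8 fell without the first late library as well as against the late controls of the TSA experiment. *Tead4*, the factor at the head of the trophectoderm programme, went from 0.47 and 0.63 to 7.43 and 11.3 FPKM (3.70 ± 0.33, adjusted p = 2.69e-06), after 0 and 0.02 FPKM in zygotes. Its partner *Yap1* was abundant and not called, at 406 and 406 FPKM at early 2-cell and 396 and 426 FPKM at late 2-cell (-0.03 ± 0.08). *Dppa4* rose from 36.1 and 31.4 to 199.69 and 178 FPKM, and its partner *Dppa2* from 34.7 and 33.4 to 102 and 88.7 FPKM. The Krüppel-like factors *Klf4* and *Klf5* rose from 28.9 and 29.5 to 73.8 and 61.01 FPKM and from 11.8 and 13.6 to 30.8 and 36.9 FPKM. *Klf17*, a relative stored in the egg, was not called, at 145 and 167 FPKM at early 2-cell and 155 and 161 FPKM at late 2-cell (0.02 ± 0.10). The nuclear receptors *Nr5a2* and *Esrrb* also rose, with log2 fold changes of 1.20 ± 0.15 and 1.99 ± 0.23. *Gata4* rose from 19.7 and 19.2 to 55.9 and 57.5 FPKM.

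The core pluripotency genes were not among those that rose. *Pou5f1*, which encodes Oct4, read 234 and 245 FPKM in the early 2-cell libraries and 112 and 129 FPKM in the late 2-cell libraries, and its change of -0.998 ± 0.13 (adjusted p = 7.50e-05) passed the test but lay just under the fold required. *Sox2* fell from 8.2 and 7.6 to 1.96 and 2.83 FPKM. *Nanog* and *Cdx2* stayed below 1 FPKM in all 4 libraries. *Sox17*, *Id2*, *Eomes* and *Gata2*, genes of later lineages, fell, *Eomes* from 5.7 and 4.14 to 2.78 and 3.15 FPKM. Of 25 genes of compaction and junctions 5 rose and 3 fell, with a median of -0.04 that was 0.08 without the first early library and -0.18 against the late controls of the TSA experiment. *Cldn6*, a claudin of the tight junction, rose from 2.45 and 1.87 to 11.9 and 14.3 FPKM and *Ctnnb1*, β-catenin, from 36.9 and 39.9 to 87.5 and 93.9 FPKM. *Ctnnd1*, which binds cadherin at the membrane, fell from 86.5 and 73.7 to 26.3 and 45.7 FPKM. E-cadherin (*Cdh1*) read 21.5 and 20.4 FPKM at early 2-cell and 35.6 and 32.2 FPKM at late 2-cell and missed the fold. Of 39 Hox genes only 5 reached 1 FPKM in either group. *Hoxa7* was among them, at 31.1 and 32.4 FPKM at early 2-cell and 18.2 and 19.3 FPKM at late 2-cell (-0.77 ± 0.15), under the fold required.

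Enzymes that write, read and erase histone acetylation, the mark under study, rose in 10 of 31 cases (32.3%) and none was called lower (median 0.39), with 21 fitted changes above 0. Among expressed protein-coding genes 2886 of 11371 were higher and 1514 lower. Against the late controls of the TSA experiment 1 of these enzymes was lower. *Ep300*, which encodes the acetyltransferase p300, read 51.4 and 41.6 FPKM in the early 2-cell libraries and 116 and 124 FPKM in the late 2-cell libraries, a log2 fold change of 1.47 ± 0.09 (adjusted p = 2.25e-07). *Crebbp*, which encodes its relative CBP, was the more abundant of the pair at early 2-cell and did not pass the test, at 298 and 315 FPKM at early 2-cell and 232 and 196 FPKM at late 2-cell (-0.21 ± 0.08, adjusted p = 0.0743). The deacetylase *Hdac1* rose from 33.3 and 28.1 to 89.1 and 98.8 FPKM (1.74 ± 0.14), while *Hdac2* stood at 55.5 and 49.2 FPKM at early 2-cell and 45.9 and 40.3 FPKM at late 2-cell (-0.32 ± 0.14, adjusted p = 0.107). The order of these deacetylases thus turned, *Hdac2* being above *Hdac1* in both early libraries and below it in both late libraries. *Sirt1*, a deacetylase that uses NAD, rose from 34.1 and 33.6 to 163 and 145 FPKM. *Kat2b* rose from 0.29 and 1.65 to 17.7 and 8.25 FPKM and *Kat2a*, the other acetyltransferase of the SAGA and ATAC complexes, from 8.52 and 9.08 to 21.7 and 20.3 FPKM. The bromodomain reader *Brd2* rose from 157 and 133 to 328 and 294 FPKM.

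DNA methylation factors leaned downward, with 2 of 16 higher and 5 lower. Their median was -0.21, with -0.10 without the first and -0.33 without the second late library, -0.31 against the late controls of the TSA experiment and -0.08 with no filter on low counts. *Zfp57*, which protects imprints, fell from 651 and 645 to 175 and 204 FPKM (-1.83 ± 0.10), whereas *Trim28*, the co-repressor it recruits, rose from 46.3 and 48.4 to 175 and 169.89 FPKM. *Uhrf1*, the guide of maintenance methylation, fell from 78.8 and 88.98 to 31.4 and 31.1 FPKM. The dioxygenases parted as well, with *Tet1* up from 7.15 and 3.89 to 31.3 and 18.3 FPKM and *Tet3*, the maternal form, at 179.6 and 197 FPKM at early 2-cell and 95.7 and 96.4 FPKM at late 2-cell, a change of -0.83 ± 0.08 that missed the fold.

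Maternal genes fell, but not uniformly. Of 24 genes of the subcortical maternal complex and other maternal-effect genes 14 fell and none was called higher (median -1.30), with 1 fitted change above 0. *Nlrp4f* fell from 564 and 614 to 92.6 and 80.3 FPKM (-2.69 ± 0.09, adjusted p = 1.26e-08), and *Nlrp4a*, *Nlrp4b*, *Nlrp4c*, *Nlrp4e*, *Nlrp9a*, *Nlrp9b* and *Nlrp9c* fell with it, with log2 fold changes between -2.65 and -1.67. *Ooep*, a core subunit of the complex, fell from 32.9 and 38.2 to 9.65 and 13.1 FPKM and *Nlrp5*, which encodes MATER, from 61.5 and 59.05 to 26.3 and 32.2 FPKM. The core subunit *Tle6* did not pass the test, at 41.4 and 39.9 FPKM at early 2-cell and 37.9 and 37.7 FPKM at late 2-cell (-0.14 ± 0.18, adjusted p = 0.585). Both read higher before the early 2-cell stage, since zygotes held 239.65 and 232 FPKM of *Ooep* and 229.69 and 221 FPKM of *Tle6*. *H1foo*, the linker histone of the oocyte, fell from 145 and 143 to 47.5 and 52.3 FPKM. *Dppa3*, which protects the maternal genome from demethylation, remained among the abundant mRNAs, at 1729.59 and 1531 FPKM at early 2-cell and 1205 and 987 FPKM at late 2-cell.

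Of 15 zona pellucida and oocyte-secreted genes 4 fell and none was called higher (median -0.47), with 3 fitted changes above 0. *Oosp3* fell from 549.8 and 551 to 80.9 and 92.6 FPKM and *Bmp15* from 539.57 and 514 to 147 and 161 FPKM (-1.78 ± 0.09). *Gdf9*, the other TGF-β ligand of the oocyte, read 92.5 and 83.8 FPKM at early 2-cell and 59.5 and 67.1 FPKM at late 2-cell and missed the fold. Of 29 oocyte and meiosis genes 3 rose and 16 fell (median -1.32). *Rfpl4*, an oocyte ubiquitin-ligase protein, fell from 1152 and 1209.51 to 159 and 162 FPKM (-2.87 ± 0.09), *Bcl2l10* from 799 and 880.27 to 132 and 142 FPKM and the RNA-binding *Dazl* from 83.0 and 98.8 to 21.1 and 21.9 FPKM. *Nobox*, a homeobox factor of the oocyte, fell from 32.9 and 38.0 to 8.33 and 10.3 FPKM. The 3 that rose were *Taf4b*, a TFIID subunit of germ cells, from 20.5 and 18.4 to 54.99 and 53.6 FPKM, *Rfpl4b*, and *Gas5*, a host gene of small nucleolar RNAs, from 24.97 and 42.4 to 58.2 and 83.6 FPKM.

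The factors that degrade mRNA changed in both directions, with 6 of 37 higher and 11 lower (median -0.42). Beside *Btg4*, the deadenylases *Cnot6l* and *Cnot7* fell, from 336 and 367 to 115 and 105 FPKM and from 811 and 853 to 381 and 274 FPKM. The poly(A) nuclease subunit *Pan2* fell from 52.5 and 59.7 to 21.9 and 23.7 FPKM and *Parn* from 16.9 and 22.7 to 11.02 and 6.36 FPKM. Rises were seen for *Cnot1*, the scaffold of the CCR4-NOT complex, from 35.96 and 34.97 to 88.95 and 89.5 FPKM, and for *Cnot10*, from 6.97 and 4.17 to 20.4 and 22.1 FPKM. The terminal uridylyltransferases *Tut4* and *Tut7*, which tag mRNA for decay, rose from 6.69 and 3.51 to 10.9 and 8.04 FPKM and from 15.7 and 14.5 to 45.3 and 44.8 FPKM. *Ythdf2*, a reader of methylated mRNA, rose from 33.6 and 28.2 to 71.3 and 69.4 FPKM.

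Stress-linked lists held more members called higher than lower. The same held for all genes tested (15.9 and 8.92%) and for expressed protein-coding genes (2886 and 1514 of 11371). Of 18 p53 target genes 6 rose and none was called lower (median 0.67), with 12 fitted changes above 0, and 3 were lower without the first late library. The largest rise was that of *Sesn2*, from 18.2 and 16.3 to 85.3 and 119.72 FPKM (2.56 ± 0.15). *Cdkn1a*, a cell cycle inhibitor and classical target, read 4.5 and 4.82 FPKM at early 2-cell and 8.92 and 8.98 FPKM at late 2-cell and missed the fold, as did *Mdm2*, the ligase of p53, at 113 and 99.96 FPKM at early 2-cell and 145 and 119.86 FPKM at late 2-cell. Of 21 genes of the integrated stress response 8 rose and 1 fell. The median of 0.21 was 0.33 without the second early, 0.43 without the first late and 0.40 without the second late library, and against the late controls of the TSA experiment it was 0.58 with 3 that fell. *Atf4*, its transcription factor, rose from 72.2 and 60.2 to 212 and 190.32 FPKM, *Slc7a5*, an amino acid transporter, from 6.25 and 6.72 to 40.03 and 35.9 FPKM and *Psat1*, of serine synthesis, from 11.5 and 6.52 to 56.2 and 39.7 FPKM. *Sesn2* stands on both lists, and *Cebpb* was the gene that fell, from 5.27 and 6.27 to 0.9 and 2.47 FPKM.

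The zygote libraries show where the genes stood before. FPKM sums differed, 799722 and 812227 in zygotes against 1268954 to 1438064 in the 4 2-cell libraries, so these levels are given as a description. Among all expressed genes, 78.35% had at least 1 FPKM in zygotes and 7.77% were under 0.1 FPKM. Of the genes that rose, fewer, 66.3%, had at least 1 FPKM in zygotes and 388 genes (11.98%) were under 0.1 FPKM. Of the genes that fell, 89.1% had at least 1 FPKM in zygotes, and 77 genes (4.25%) were under 0.1 FPKM there. Median levels of the genes that rose were 2.92, 4.01 and 16.4 FPKM in zygotes, early and late 2-cell embryos, and those of the genes that fell were 15.4, 11.1 and 3.87 FPKM.

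Several lists stood higher in zygotes than at early 2-cell. Both zygote libraries lay above both early libraries for 71 of 97 ribosome biogenesis genes (73.2%), 29 of 40 proteasome subunits (72.5%), 31 of 41 DNA replication genes (75.6%) and 60 of 78 mitochondrial ribosomal proteins (76.9%), against 41.5% of all expressed genes. Ribosomal protein genes leaned the other way, with 30 of 83 higher (36.1%) and 39 lower (47.0%) in zygotes. Among all expressed genes these shares were 41.5 and 36.9%. *Pwp2* read 19.5 and 18.9 FPKM in zygotes before the early and late levels given above, and *Bms1*, a GTPase of small subunit assembly, read 332 and 377, then 13.4 and 13.7, then 33.1 and 29.4 FPKM. *Psma3* read 26.6 and 33.8 FPKM in zygotes and *Mcm3* 24.7 and 24.97 FPKM. Other ribosome biogenesis genes were lower in zygotes. *Nop16* read 0.22 and 0.35, 13.8 and 10.6 and 70.7 and 74.7 FPKM in the 3 stages, and *Nop2*, an RNA methyltransferase of the nucleolus, 0.76 and 1.19, 13.5 and 7.34 and 64.5 and 76.7 FPKM. *Bms1*, *Nop16* and *Nop2* were chosen after their values had been seen. Of 67 replication-dependent histone genes none was higher in zygotes than at early 2-cell and 58 were lower (86.6%), against 36.9% lower among all expressed genes.

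The genes that rose spanned less of the genome than the others. Among 11371 expressed protein-coding genes the median span from start to end was 18290 bp for those that rose, 26890 bp for those that fell and 28820 bp for those not called. The share called higher was 30.4% of genes up to 5000 bp, 32.3% from 5000 to 10000 bp, 31.5% to 20000 bp, 27.4% to 50000 bp, 19.9% to 100000 bp and 9.13% beyond. The share called lower varied less, between 11.4 and 15.8%. The 40 protein-coding genes that fell and were under 0.1 FPKM in zygotes formed the shortest group, with a median span of 5266 bp and a median of 3 exons, and 30.0% of their windows held TATAAA.

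Open chromatin was compared from the deposited peak lists of DMSO-treated embryos, each called over both replicates of a stage, with 27693 peaks at early 2-cell and 10214 at the late 1-cell stage. The peaks were placed on GRCm38, the build named for the RNA data, and no peak ran past a chromosome end of that build. Only expressed protein-coding genes were counted, 2886 that rose, 1514 that fell and 6971 not called. A peak of the early 2-cell stage lay within 1 kb of the start of 64.5% of the genes that later rose (95% Wilson interval 62.7 to 66.2%, counting error only), of 29.1% of those that fell (26.9 to 31.5%) and of 44.2% of those not called (43.1 to 45.4%). At the late 1-cell stage the shares were 44.3, 30.9 and 38.3%. Among genes with at least 10 FPKM at late 2-cell the share was 73.3% of those that rose and 57.5% of those not called. Ribosome biogenesis genes had a peak in 73.2% and ribosomal protein genes in 69.9% of cases. The share was lower, 42.6%, for genes that rose from under 1 FPKM, and 42.5% for those that rose at least 16-fold. Of the 2-cell families 29.3% had a peak, and of zona and oocyte-secreted genes 13.3%.

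**Figure D5:**
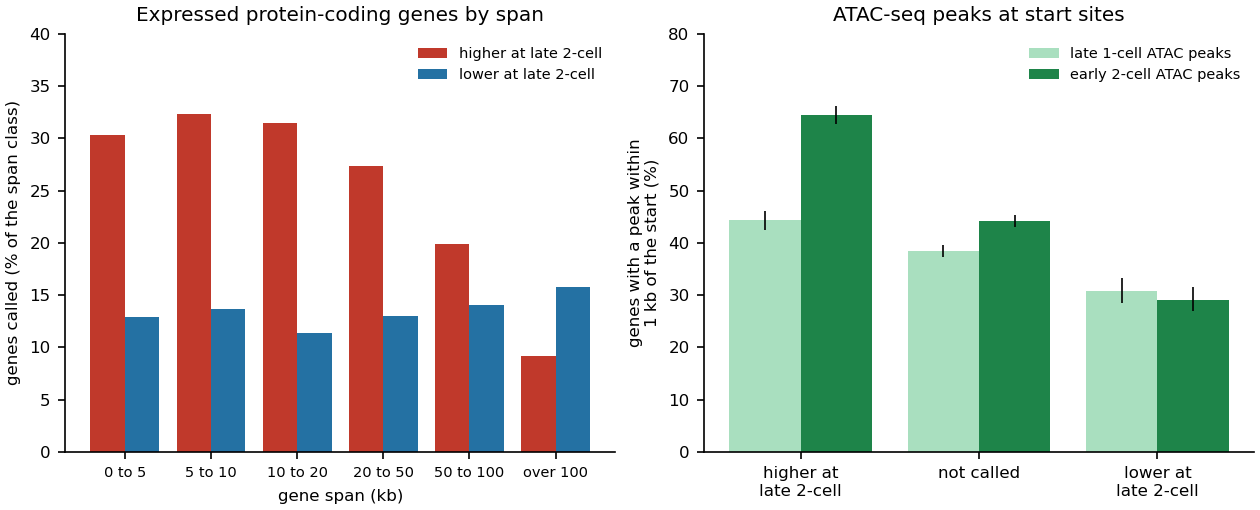
Left, percent of expressed protein-coding genes called higher and lower (y axis) by gene span in kb (x axis). Right, percent of expressed protein-coding genes of each class with an open chromatin peak within 1 kb of the start, for the late 1-cell and the early 2-cell list, with 95% Wilson intervals as error bars. The share called higher was 30.4% in the shortest and 9.13% in the longest class, and genes that rose have peaks at early 2-cell in 64.5% of cases against 29.1% of genes that fell.

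The late 2-cell controls of the TSA experiment offer another pair of libraries of the same stage. They differed from the late 2-cell libraries described here in 273 of 20647 genes tested (1.32%), of which 28 were higher and 245 lower in the A-485 experiment, and 2777 genes had an unadjusted p below 0.05. Without the first or the second late library of the A-485 experiment the count was 524 or 493, and 445 with the replicate block. The median size of the difference was 0.35 on the log2 scale, against 1.02 for the change from early to late. Genes that rose took 22.4 and 22.6% of their counts and genes that fell 5.42 and 5.39%, close to the 21.5 and 21.8% and the 5.81 and 5.86% above. *Tor1b* read 46.3 and 39.5 FPKM there, *Rplp1* 702 and 726 FPKM, *Zbed3* 1589.82 and 1606 FPKM and *Obox5* 229 and 209 FPKM. *Zscan4c* read 8.13 and 11.8 FPKM in these controls, below both late 2-cell libraries of the A-485 experiment, and *Dppa4* read 289 and 287 FPKM, above both. Whether those differences between late libraries come from the time of collection, the length of exposure to vehicle or the preparation of the libraries was not tested.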

How the data were processed

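RNA-seq of DMSO-treated mouse embryos was analysed from the gene tables of 8 libraries, 2 each of early 2-cell, late 2-cell, late 2-cell of the TSA experiment and zygotes. The authors removed adaptors with Trimmomatic 0.39, mapped reads to GRCm38 with STAR 2.7.8a and quantified genes with RSEM 1.3.1, and they deposited expected counts, FPKM, effective lengths and posterior standard deviations per library. The annotation release was not given in the sources used here, and 55144 of 55385 identifiers matched GENCODE M21. The deposited ATAC-seq peak lists, made by the authors over both replicates, give a fold enrichment ratio per peak, of which the positions were used. A build for the ATAC-seq was not given in the sources used here.

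Expected counts were rounded and tested with edgeR 4.0.16 (quasi-likelihood, TMM, R 4.3.3) on the 4 libraries of the early and late 2-cell groups, over genes with at least 10 counts in all, with Benjamini-Hochberg adjustment over all genes tested. A call needed an adjusted p below 0.05, at least 2-fold and a mean of at least 1 FPKM in either group. The common biological coefficient of variation was 0.332. FPKM were used for levels only, and a fold from FPKM can differ from the fitted one where the effective length changes. Nothing states that replicates came from separate cultures, so p-values measure the spread between these libraries, which may be technical. The early and late libraries share replicate numbers, but the deviations of same-numbered libraries from their group means correlated at only 0.023, so no block was used.

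Named genes were, in each direction, the 12 largest changes among called protein-coding genes with at least 10 FPKM in the higher group and no overlap, the 5 most abundant called genes, the 3 largest called members of each of 35 lists, and members of short lists whose role is given. The members and lists were chosen with earlier results of these data known, and 2 of the lists are the study's own. Gene spans and motif windows (11358 of 11371 genes) were read from the GRCm38 reference with GENCODE M21, and the printed promoters from RefSeq. The test was tried on simulated counts for 20326 genes. It recovered 145 of 200 changed genes, 13 of 50 at 2-fold and 49 of 50 at 16-fold, with 7 false calls among 152. Far fewer genes were changed there than were called in the data, and the FPKM rule was left out. These rates therefore need not hold for the data. Alternatives were DESeq2 1.42.0, other scalings and filters, a replicate block, other libraries and leaving out each library. Libraries that received A-485 or TSA, and assays of the series other than RNA-seq and ATAC-seq, were not used, and 0 columns of per-sample values lacked a sample. Values of a few list members are not reported here.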

Additional observations from a re-analysis of the deposited data

How the results depend on the processing

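The early to late change gave 3238 genes higher and 1813 lower. A 4-fold cutoff left 1702 higher and 487 lower by construction. DESeq2, other scalings (size factors, library totals, mitochondrial counts), no filter on low counts, no FPKM cutoff, all 8 DMSO libraries in a single fit and the late controls of the TSA experiment gave between 3113 and 4077 higher and between 1777 and 2167 lower, within 1.5 times of the counts reported. Leaving out each library in turn gave 3085 to 3221 higher and 1649 to 1829 lower. Same-numbered libraries share only a number (correlation 0.023), and the fit with the replicate block gave 3320 higher and 1908 lower. The 273 genes that differ between the late groups were 445 with the replicate block, and between 227 and 524 without single libraries (524 and 493 without the first and the second late library of the A-485 experiment), and the cause was not tested. Of 179 named genes none reversed. In 41 of 2148 refits the adjusted p of a named gene was no longer below 0.05. This was most often so for *Ndufa8*, *Hist1h1t*, *Ndufb4*, *Prm2* and *Gm22806*, with 4 or 5 refits each. Calls lost only because the change fell under 2-fold were not counted in this number. Chaperones called lower, for example, went from 3 to 2 against the late controls of the TSA experiment. *Tpi1* had a log2 fold change of -0.11 against the late controls of the TSA experiment. Of 420 refitted list medians 53 moved by more than the spread between library pairs, and 11 changed sign, all in 7 lists with a median under 1 in size. In simulated counts 13 of 50 changes of 2-fold, which lie on the fold cutoff itself, were called, with a median recovered size of 0.975 on the log2 scale.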
